A study of Mus musculus with 4 samples.

Results

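The genes that encode the subunits of the RNA polymerases and the general transcription factors were examined for Eya1 occupancy in the embryonic mouse kidney. They were chosen by symbol alone, as the protein-coding genes of GENCODE release M21 whose names begin with Polr1, Polr2 or Polr3, with Taf and a digit, or with Gtf2 or Gtf3. This gave 74 of 21951 protein-coding genes, of which 28 have Polr symbols. Eya1 is a transcriptional coactivator that cannot bind DNA by itself, and its sites were mapped by chromatin immunoprecipitation and sequencing (ChIP-seq) in whole kidneys at E13.5. All embryos carried the Eya1 HA-FLAG knockin allele, which puts tags on the endogenous protein, and 80 kidneys were pooled for each assay. The 4 samples were 2 Eya1 ChIP replicates, precipitated with anti-FLAG beads, 1 input control and 1 IgG control, and a peak list was used for each ChIP replicate only. The lists hold positions and no RNA levels, so the tissue could not be checked against marker genes, and a peak in whole kidney cannot be assigned to a cell type.

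The machinery works as a set of modules. Pol I makes the large ribosomal RNA precursor, Pol II makes messenger RNAs, and Pol III makes transfer RNAs and other small RNAs. None of them finds a start site alone. SL1, a complex of TBP with its own TAF proteins, brings Pol I to ribosomal DNA. TFIID, with another set of TAFs, and TFIIA, TFIIB, TFIIE, TFIIF and TFIIH place Pol II at promoters and open the DNA, while TFIIIA and TFIIIC recognise the promoters of Pol III genes and bring in TFIIIB, which recruits Pol III. Some subunits serve several polymerases. The genes are used in nearly all cells, and most of their promoters are rich in CpG dinucleotides.

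To show the DNA concerned, the 150 bases just upstream of the annotated 5′ end of the gene are printed for 5 occupied members. Each is the member of its module with overlapping peaks in both replicates and the widest replicate 2 peak. No upstream stretch free of annotated exons was found for the TFIIIC genes with such peaks, so none is printed for that module. Sequences are from mm10 (GRCm38) and read 5′ to 3′ on the strand of the gene, and capitals mark matches to the 10 motifs described further on.

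Polr1d, subunit of Pol I and III, chr5:147076900-147077049, plus strand: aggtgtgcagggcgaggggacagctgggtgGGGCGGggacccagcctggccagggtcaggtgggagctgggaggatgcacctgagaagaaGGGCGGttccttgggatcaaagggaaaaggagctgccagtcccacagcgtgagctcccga
Polr2m, Pol II, chr9:71485936-71486085, minus strand: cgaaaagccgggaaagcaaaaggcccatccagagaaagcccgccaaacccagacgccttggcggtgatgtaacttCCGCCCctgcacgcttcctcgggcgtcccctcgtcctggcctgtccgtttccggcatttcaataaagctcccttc
Polr3e, Pol III, chr7:120917594-120917743, plus strand: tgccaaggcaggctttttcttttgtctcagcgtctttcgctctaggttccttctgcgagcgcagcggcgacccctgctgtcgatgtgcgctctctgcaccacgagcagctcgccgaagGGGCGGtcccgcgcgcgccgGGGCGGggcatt
Taf8, TFIID, chr17:47502293-47502442, minus strand: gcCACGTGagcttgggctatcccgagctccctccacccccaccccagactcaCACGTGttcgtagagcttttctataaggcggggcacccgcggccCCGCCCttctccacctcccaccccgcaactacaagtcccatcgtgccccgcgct
Gtf2i, TFII-I, chr5:134314761-134314910, minus strand: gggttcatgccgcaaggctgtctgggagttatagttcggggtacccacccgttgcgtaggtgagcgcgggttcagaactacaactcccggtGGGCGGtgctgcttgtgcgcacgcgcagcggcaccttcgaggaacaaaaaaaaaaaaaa

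The corresponding stretches of 2 members without a peak, Taf4 of TFIID and Gtf2f2 of TFIIF, are given for contrast. Both have a high ratio of observed to expected CpG (defined further on) for members without a peak. Taf7, Taf4b and Gtf2h3, which also do, are not shown.

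Taf4, chr2:179976647-179976796, minus strand: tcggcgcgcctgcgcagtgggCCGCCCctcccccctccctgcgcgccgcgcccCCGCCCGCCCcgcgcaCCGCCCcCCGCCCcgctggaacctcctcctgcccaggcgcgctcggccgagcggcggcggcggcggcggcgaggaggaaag
Gtf2f2, chr14:76010866-76011015, minus strand: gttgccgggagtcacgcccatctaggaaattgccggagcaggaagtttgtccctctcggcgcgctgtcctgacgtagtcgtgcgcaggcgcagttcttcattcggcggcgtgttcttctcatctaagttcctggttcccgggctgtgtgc

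A member was counted as occupied when a peak lay within 1 kb of a transcription start site (TSS) of any of its annotated transcripts. It was counted as shared when such peaks of the 2 replicates also overlapped each other by at least 1 bp. Replicate 1 had a peak at 27 of the 74 members (36.5%), replicate 2 at 14 (18.9%), either list at 29 (39.2%), and 12 were shared (16.2%). Over all protein-coding genes the shares were 20.2% in replicate 1, 14.7% in replicate 2, 23.5% in either list and 11.3% shared. The members are a complete set of named genes rather than a sample of genes, so these shares are given as counts, with no test. The mean of the 2 replicates was 20.5 ± 9.19 members (SD, n = 2), so the replicates differed widely in how many members they listed. Of the members in replicate 1, 44.4% were shared, and of those in replicate 2, 85.7%. For all protein-coding genes these percentages were 55.9% and 76.9%.

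The members have more CpG than most genes, and Eya1 peaks follow CpG content closely. CpG content was measured as the observed over the expected number of CpG dinucleotides in the 1000 bp around the 5′ end of each gene. The median was 0.775 in the members (range 0.446 to 1.07) and 0.552 in all protein-coding genes. Among the other protein-coding genes, the share with a peak in either list was 1.46% in the lowest decile of CpG content and 62.5% in the highest. No member fell in the 4 lowest deciles.

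Each member was therefore set beside the 25 other protein-coding promoters nearest to it in CpG content, 1850 in all, in which 1671 different genes occurred. These CpG-matched promoters had a peak in either list in 38.5% of cases, compared with 39.2% of the members. In replicate 1 the share was 33.1% in the matched promoters and 36.5% in the members, in replicate 2 it was 23.8% and 18.9%, and for shared peaks 18.1% and 16.2%. The order thus differed between the lists, with the members above the matched promoters in replicate 1 and below them in replicate 2. With both lists used, other ways of matching gave 36.5% to 41.9% for either list, on both sides of the members' share. For shared peaks they gave 18.1% to 20.5%, always above the members' share. With the gene 5′ end as the only TSS position, the matched shares were 37.7% for either list and 17.7% for shared peaks. The matching does not take account of how strongly a gene is transcribed, whose part was not tested. It also left the share of G and C bases (GC content) unequal, with medians of 60.65% in matched promoters and 58% in members.

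**Figure D1:**
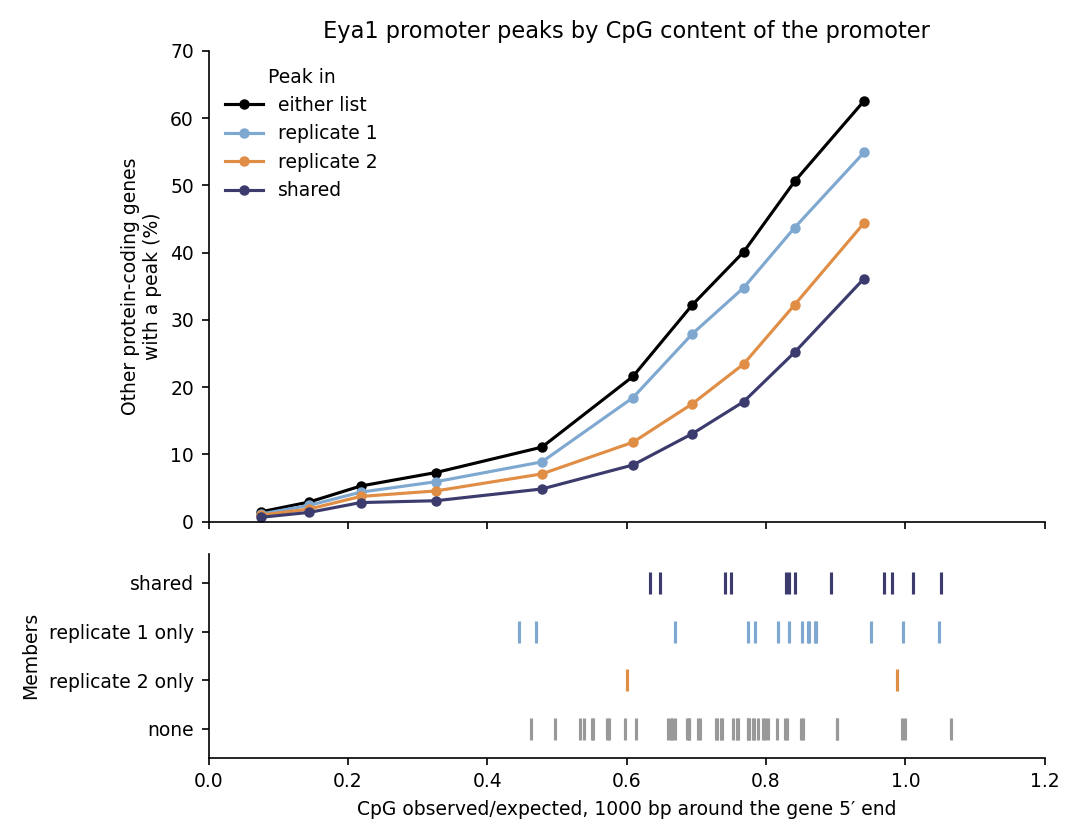
Upper panel, share of the other protein-coding genes with an Eya1 peak within 1 kb of a TSS (%) against the median CpG observed/expected ratio of each decile of genes. Lower panel, 1 tick for each of the 74 members at its own ratio, by class. The share in either list rises from 1.46% to 62.5%, and the 45 members without a peak lie across the same range as the others.

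Within the members, occupancy was higher at the upper end of CpG content. In the 2 highest deciles 19 of 29 members had a peak in either list (65.5%), compared with 56.6% of the other protein-coding genes there and 57.5% of promoters matched to these members on CpG content and on having a divergent or a single promoter (defined further on). In the lower 8 deciles 10 of 45 did (22.2%), compared with 31.0% of promoters matched in both respects. The share of the other genes in those deciles was 15.2%, but it includes the 4 lowest deciles, which hold no member. By list, the members of the 2 highest deciles were above both comparisons in replicate 1 only. Replicate 1 had a peak at 62.1% of these members, 49.3% of the other genes and 50.9% of the matched promoters. In replicate 2 these shares were 31.0%, 38.3% and 37.5%, and for shared peaks 27.6%, 30.7% and 30.3%. Below the upper 2 deciles there was no steady rise, with a peak at 2 of 8, 3 of 7, 1 of 12 and 4 of 18 members from the fifth to the eighth decile. The shares of the other genes in these deciles were 11.1%, 21.6%, 32.2% and 40.1%. The median ratio was 0.837 in the shared members, 0.852 in those of replicate 1 only and 0.736 in those without a peak. Their median GC content was 63%, 60.6% and 54.9% in the same order. The ranges of the ratio overlapped between the classes, since a member without a peak, Taf7 of TFIID, had the highest ratio of all (1.07), and Gtf3c5 of TFIIIC had a replicate 1 peak with the lowest (0.446). However, the Gtf3c5 peak lay 550 to 1262 bp downstream of the 5′ end. It covered another TSS of the gene and was outside the bases in which the ratio was measured.

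The subunits common to all polymerases and the SL1 genes had no peak in either list. The 5 common subunits, Polr2e, Polr2f, Polr2h, Polr2k and Polr2l, are small proteins of the polymerase body. Peaks in either list were found at 32.0% of their CpG-matched promoters. The nearest peak to a TSS of these genes was 7331 bp away, in replicate 2 at Polr2l. Of the 4 SL1 genes, Taf1a, Taf1b, Taf1c and Taf1d, none had a peak, and the share in their matched promoters was 30.0%. With 5 and 4 genes, these counts are too small to set the modules apart from other promoters. The same limit applies to the small groups described below, also where their share lies above that of matched promoters.

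In Pol I, 3 of 5 members had a peak, and the share in matched promoters was 31.2%. By list, the shares of members and matched promoters were 60.0% and 24.8% in replicate 1, and 20.0% and 20.8% in replicate 2. Polr1a, the catalytic subunit, had a replicate 1 peak of 1835 bp, and Polr1b and Polr1e had none. Polr1c and Polr1d, which help to assemble both Pol I and Pol III, were both occupied. Polr1c had the widest peak of all members, 2200 bp, in replicate 1 only. At Polr1d the replicate 1 peak (chr5:147076756-147078276, 1521 bp) spanned the 5′ end, and the replicate 2 peak (chr5:147077724-147077983, 260 bp) lay within the gene, 160 bp from the nearest TSS.

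In Pol II, 5 of 8 members had a peak, compared with 42.0% of matched promoters, and only 1 was shared. Polr2a, whose repeated tail coordinates RNA processing with transcription, had a replicate 1 peak of 1442 bp centred on its 5′ end, and replicate 2 had no peak within 65090 bp. Polr2g, part of the stalk, and Polr2i were also occupied in replicate 1 only, with peaks of 731 and 1972 bp. Polr2m encodes a protein that attaches to Pol II and restrains it. It was the shared member, with a replicate 1 peak at chr9:71484812-71485963 (1152 bp) and a replicate 2 peak at chr9:71485304-71485897. The latter was the widest replicate 2 peak of any member (594 bp) and began 38 bp downstream of the 5′ end. Polr2b, the partner of Polr2a in the catalytic centre, had a replicate 2 peak only (chr5:77309458-77309583, 126 bp), 564 bp upstream of the nearest Polr2b TSS. This peak lay closer to a TSS of the divergent neighbour Noa1. Polr2c, Polr2d and Polr2j had none.

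In Pol III, 3 of 10 members had a peak, and the share in matched promoters was 35.2%. Polr3a, the catalytic subunit, and Polr3c, of the subcomplex that acts in initiation, had replicate 1 peaks of 524 and 986 bp. Polr3e was shared, with a replicate 1 peak at chr7:120917403-120918731 (1329 bp) and a replicate 2 peak at chr7:120917852-120918309 (458 bp), both overlapping an annotated untranslated region (UTR). Polr3b, Polr3d, Polr3f and Polr3k had no peak. The alternative subunits Polr3g and Polr3gl, of which Pol III takes one or the other, also had none.

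In TFIID, 5 of 13 members had a peak and 3 were shared, compared with 45.5% and 23.1% of matched promoters. Taf8 was shared, with a replicate 1 peak at chr17:47501984-47502671 (688 bp) and a replicate 2 peak of 250 bp that began 2 bp downstream of the 5′ end (chr17:47502041-47502290). Taf5, a scaffold subunit, had peaks of 895 and 145 bp in replicates 1 and 2, and Taf11, a histone-fold subunit, had peaks of 1169 and 185 bp. Taf3, which reads a histone mark of active promoters, and Taf9, a histone-fold subunit also found in the SAGA coactivator, had replicate 1 peaks of 912 and 1526 bp. Taf1, the largest subunit, and Taf2, Taf4, Taf6, Taf7, Taf10, Taf12 and Taf13 had none. Taf4 and Taf7 stood in the highest CpG decile, where 62.5% of other genes had a peak in either list. The nearest peak of either list was 47864 bp from a TSS of Taf4 and 162154 bp from that of Taf7.

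Among the TAF paralogues 1 of 5 was occupied, compared with 44.0% of matched promoters. Taf5l, a SAGA subunit, was shared, with peaks at chr8:124020554-124021843 (1290 bp) in replicate 1 and chr8:124021203-124021410 (208 bp) in replicate 2. Taf4b, Taf6l, Taf7l and Taf9b had none. Taf1, Taf7l and Taf9b are on chromosome X, where 2.53% of all protein-coding genes had a peak in either list. Taf15, an RNA-binding protein also found with TFIID, had a replicate 1 peak of 1152 bp.

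The remaining Pol II factors had a peak at 8 of 16 members, compared with 39.0% of matched promoters, and 3 were shared. TFIIA steadies TBP on DNA. Gtf2a1, its large subunit, had a replicate 1 peak of 2167 bp (chr12:91588471-91590637) with 2 replicate 2 peaks inside it (chr12:91588931-91589198 and chr12:91589443-91589559, 268 and 117 bp). Gtf2a2 had the narrowest replicate 1 peak of the members (410 bp), and the germ-cell form Gtf2a1l had none. Gtf2b, the single TFIIB gene, had no peak, and neither did the TFIIF genes Gtf2f1 and Gtf2f2. In TFIIE, which recruits TFIIH, Gtf2e2 had a replicate 1 peak of 972 bp and Gtf2e1 none.

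In TFIIH, the factor that unwinds promoter DNA, 2 of 5 members had a peak (40.0%), close to the 37.6% of matched promoters. Gtf2h5 was shared (chr17:6079376-6080067, 692 bp, and chr17:6079595-6079712, 118 bp), although its replicate 2 peak lay closer to a TSS of the neighbour Serac1. Gtf2h1 had a replicate 1 peak of 1165 bp, and Gtf2h2, Gtf2h3 and Gtf2h4 had none. The 3 genes of the TFII-I family, signal-responsive factors that lie together on chromosome 5, each had a peak, compared with 41.3% of matched promoters. With 3 genes, this count is too small to set the family apart from other promoters. Gtf2i was shared (chr5:134313296-134314726, 1431 bp, and chr5:134314185-134314573, 389 bp). Gtf2ird2 had a replicate 1 peak of 955 bp and Gtf2ird1 a replicate 2 peak of 181 bp (chr5:134456121-134456301) that covered one of its 24 TSS positions. Gtf2i also has 24 TSS positions, while the median was 5 per member and 3 per protein-coding gene. With the annotated 5′ end as the only position, the counts of members were the same in both lists.

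The Pol III factors had a peak at 3 of 7 members, compared with 33.7% of matched promoters. TFIIIC recognises promoter elements inside transfer RNA genes. Gtf3c1, its largest subunit, had peaks at chr7:125706812-125708379 (1568 bp) in replicate 1 and chr7:125707372-125707646 (275 bp) in replicate 2. Gtf3c4 was also shared, with peaks of 2058 and 183 bp. Gtf3c5 had a replicate 1 peak of 713 bp, while Gtf3c2, Gtf3c3 and Gtf3c6 and the TFIIIA gene Gtf3a had none.

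**Figure D2:**
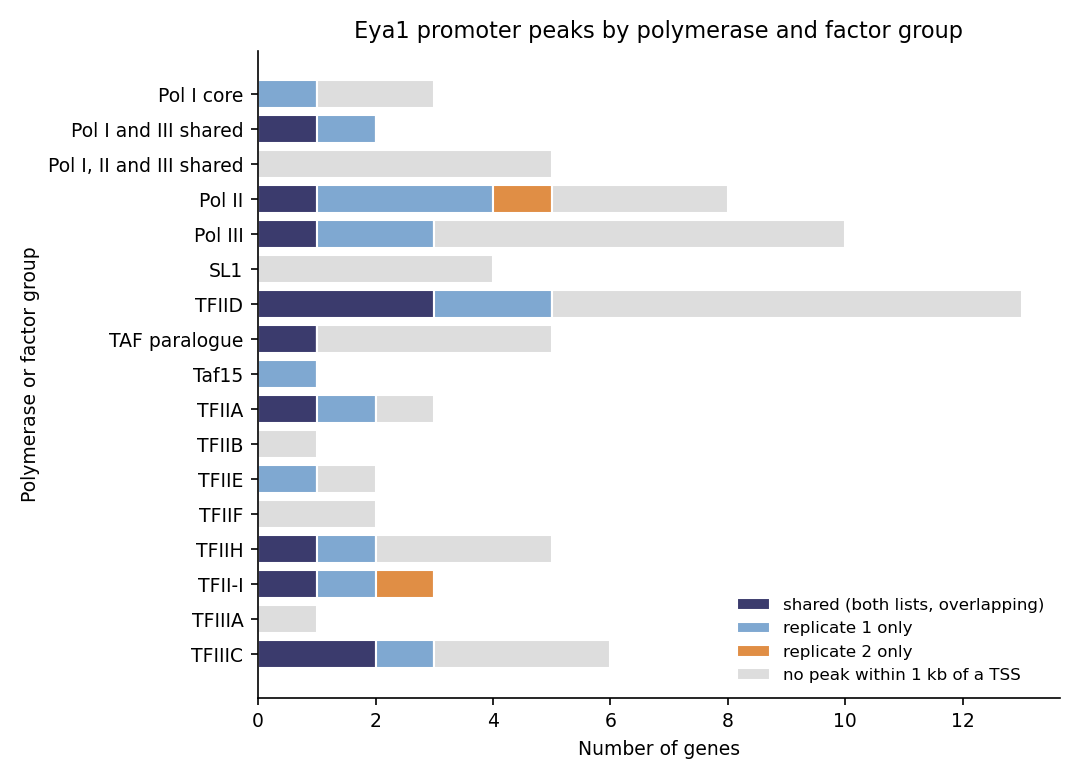
Number of genes in each polymerase or factor group, divided by class of Eya1 peak within 1 kb of a TSS. The bars for the 5 common subunits and the 4 SL1 genes hold no peak, and TFIID holds 3 of the 12 shared members.

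The position of the peaks differed between the replicates. All 27 replicate 1 members had a peak that covered one of their TSSs (100%), compared with 90.9% of all protein-coding genes with a replicate 1 peak. In replicate 2 this was so for 5 of 14 members (35.7%), compared with 33.5% of all genes with a replicate 2 peak. The narrow replicate 2 peaks lay mostly just inside the gene. Of 15 such peaks at members, 13 had their midpoint downstream of the 5′ end (86.7%). Over all protein-coding genes, 84.6% of the gene and peak pairs within 3 kb of the 5′ end did so. The median midpoint of the 15 peaks was 334.5 bp downstream. Replicate 1 midpoints were downstream at 18 of 27 members (66.7%) and in 83.5% of all gene and peak pairs within 3 kb of the 5′ end. All 13 replicate 2 peaks at shared members lay wholly inside a replicate 1 peak of the same member. Beyond 1 kb of their TSSs, the gene bodies of the members held 0 peaks of either list, a count not given for all protein-coding genes.

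**Figure D3:**
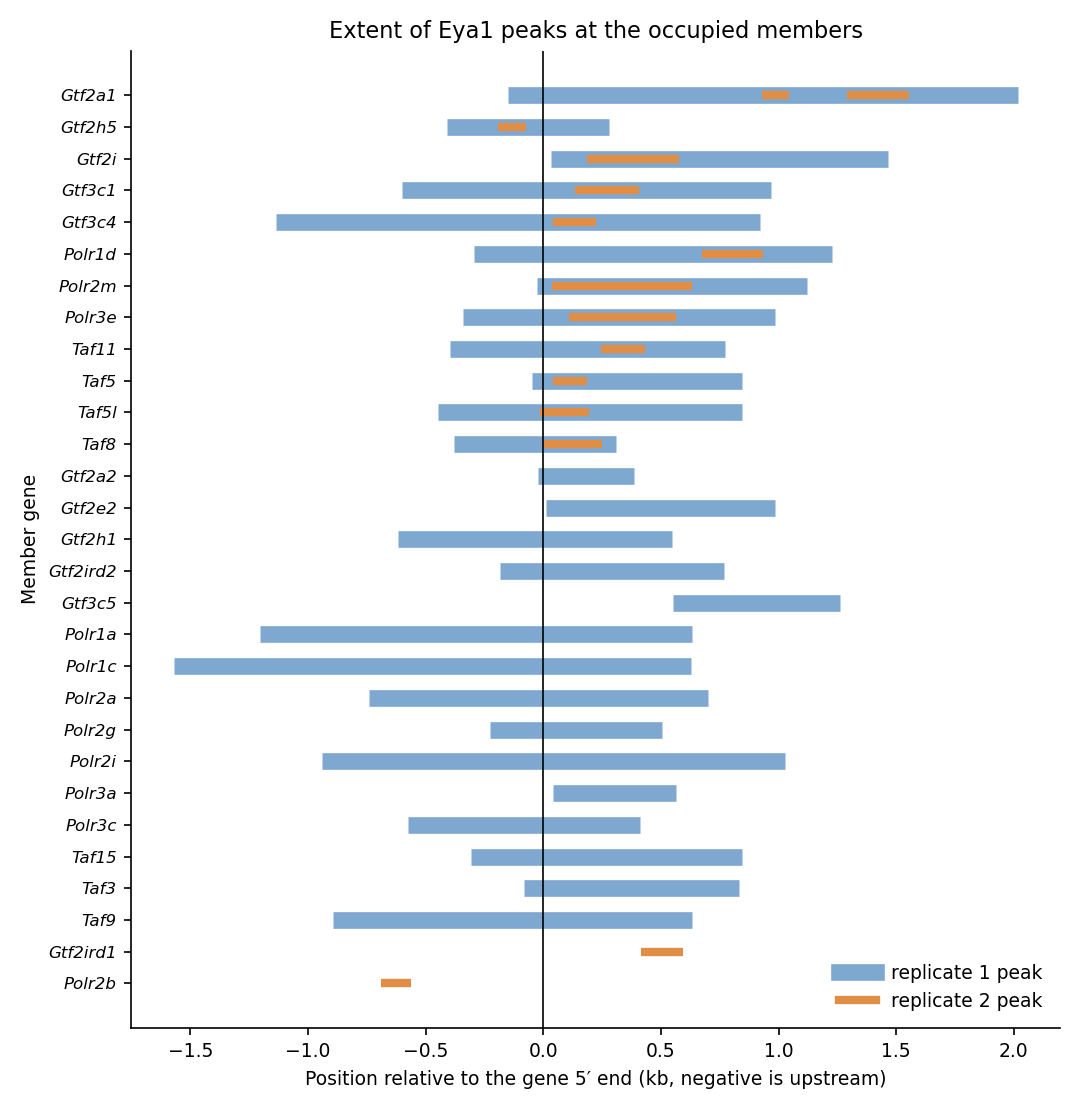
Extent of each Eya1 peak relative to the annotated 5′ end of the gene (kb, negative is upstream) at the 29 occupied members. Wide bars are replicate 1 peaks and narrow bars replicate 2 peaks. The replicate 2 peaks of the 12 shared members lie inside the replicate 1 peaks, mostly to the right of the 5′ end.

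The 15 members of replicate 1 only had no replicate 2 peak close by. The nearest was 21639 bp from a TSS, at Polr2g. The members without a peak were likewise clear of the threshold, since 0 of the 45 had a peak between 1 and 3 kb from a TSS and 4 had one within 10 kb. No such counts are given for all protein-coding genes, so these describe the members alone. The cutoff of each list was not stated, and its part in the peaks of 1 list only was not tested.

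Median widths at the members were close to those of all promoter peaks. The median was 1165 bp over 27 replicate 1 peaks, and 1100 bp over all 3989 replicate 1 peaks at protein-coding promoters. For replicate 2 it was 208 bp over 15 peaks, and 199 bp over all 3473. The 95% intervals of the members' medians ran from 912 to 1521 bp and from 145 to 275 bp. They cover sampling of peaks within a list only and take each peak as a separate draw. They are not a test of the members against all promoter peaks. CpG-matched promoters had medians of 1089 and 201.5 bp. At or above the median of all promoter peaks were 16 of 27 replicate 1 peaks and 8 of 15 replicate 2 peaks. Among replicate 1 peaks, the median was 1309.5 bp at the shared members and 986 bp at those of replicate 1 only, and the ranges overlapped (688 to 2167 bp and 410 to 2200 bp). Widths cannot be compared between the lists, whose medians over all peaks were 1069 and 188 bp.

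**Figure D4:**
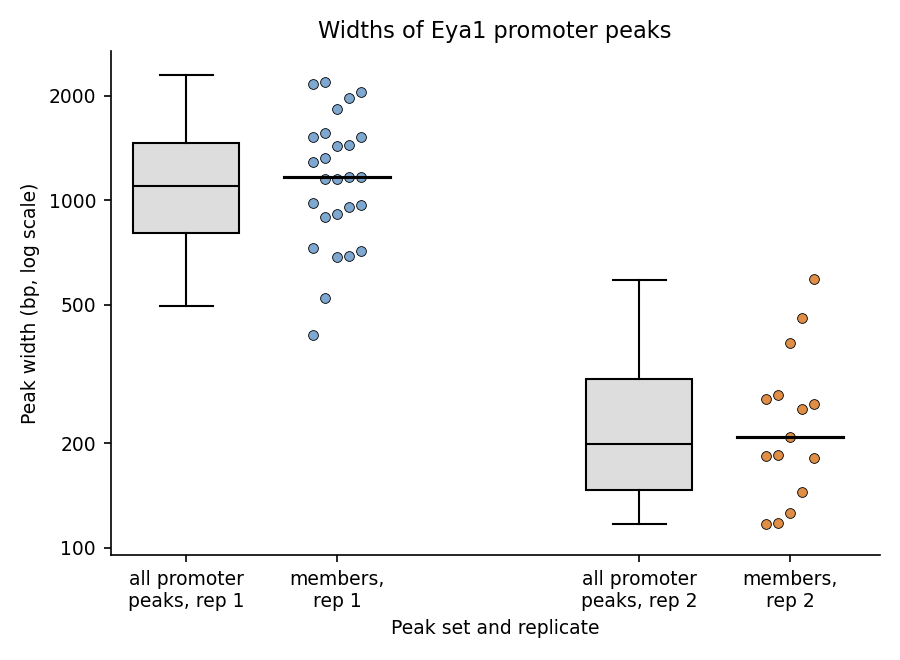
Widths of Eya1 promoter peaks (bp, log scale). Boxes show the median, the quartiles and the 5th and 95th percentiles of all peaks within 1 kb of a protein-coding TSS, points show the peaks at members, and bars mark their medians. The members' medians of 1165 and 208 bp lie inside the boxes of their replicates.

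Many members share their promoter region with another gene. A promoter was called divergent when another protein-coding gene had a TSS on the opposite strand no more than 1 kb to either side of the 5′ end. This held for 24 members (32.4%), compared with 11.8% of all protein-coding genes and 19.1% of the CpG-matched promoters. Of these, 14 had a peak in either list (58.3%), and of the 50 members with a single promoter 15 did (30.0%). Promoters matched on CpG content and of the same kind gave 52.3% and 36.2%. In 11 of the 27 members with a replicate 1 peak, the peak also covered a TSS of a neighbour, such as Yipf3 at Polr1c, Ptcd3 at Polr1a, Ddx31 at Gtf3c4, Urb2 at Taf5l and Ak6 and Rad17 at Taf9. Such a peak cannot be assigned to the member rather than to its neighbour. The narrow replicate 2 peaks covered a neighbour's TSS in 1 case, Anks1 at Taf11. No such shares are given for all protein-coding genes, so both counts describe the members alone.

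The promoters were searched on both strands from 250 bases before to 50 bases after the 5′ end for the letters of 9 motifs and for RE1, the element of the repressor REST (with at most 2 mismatches). A match describes the sequence and is not a bound site, and none of the 9 motifs contains another, although matches may overlap. The ETS motif CCGGAAG was present in 28 of 74 members (37.8%), in 10.8% of all protein-coding promoters and in 17.2% of the matched ones. It was found in 8 of 29 occupied members and in 20 of 45 without a peak (27.6% and 44.4%). Over all protein-coding genes the order was the other way, with 18.0% of occupied and 8.56% of unoccupied promoters. This split rests on few members, is not matched for CpG content and was not tested. Whether the order was that of all genes differed between motifs. The GC box GGGCGG, which Sp-family factors recognise, was present in 49 members (66.2%), in 43.0% of all promoters and in 70.5% of the matched ones. It was found in 75.9% of occupied members and 60.0% of those without a peak. Over all protein-coding genes the order was the same (65.7% and 36.0%). The stretches of Polr1d, Polr2m, Gtf2i, Polr3e and Taf8 printed above hold it, and so does that of the unoccupied Taf4, with 5 copies. The E-box CACGTG was found in 15 members (20.3%), compared with 7.75% of all promoters and 12.3% of the matched ones, and occurs in 2 copies in the Taf8 stretch. Its shares were 27.6% in occupied members and 15.6% in those without a peak, with the same order over all protein-coding genes (10.2% and 7.0%).

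For the other motifs, shares are given for members, all promoters and matched promoters in that order. The NFY letters CCAAT were present in 33.8%, 39.0% and 38.7%. The TATA box TATAAA was present in 12.2%, 12.6% and 6.59%, so the members were near all promoters and above the matched ones. AANATGGCG of YY1 was present in 7 members, with shares of 9.46%, 2.91% and 5.73%. The remaining motifs were each in 3 or 4 members. TGACGTCA was present in 5.41%, 2.43% and 3.57%, TCTCGCGA in 4.05%, 1.38% and 2.76%, GCGCATGCG of NRF1 in 4.05%, 2.48% and 4.43%, and RE1 in 5.41%, 2.96% and 3.84%. Within the peaks themselves, RE1 was found in 4 of 27 replicate 1 peaks at members (14.8%; Polr3e, Gtf3c4, Taf5l and Taf9), compared with 14.7% of all promoter peaks of that list. In replicate 2 it was found in 0 of 15, compared with 6.77%.

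A further 40 genes of the transcription machinery that the symbol rule leaves out were examined in the same way. They were listed by function with earlier results of these data known, so their shares are a description only. Their matching took account of CpG content and not of divergent promoters. Of these, 20 had a peak in either list (50.0%), 19 in replicate 1, 12 in replicate 2, and 11 were shared (27.5%). Over all protein-coding genes the shares were 23.5% in either list and 11.3% shared, and in promoters matched to these 40 genes on CpG content they were 36.0% and 16.4%. Ubtf, the architectural factor of Pol I genes, was shared with widths of 2457 and 513 bp in replicates 1 and 2. Tbp, the subunit that SL1, TFIID and TFIIIB have in common, had a replicate 1 peak of 847 bp, and its relative Tbpl1 was shared. In TFIIIB and its repressor, 3 of 4 genes had a peak, namely Brf1, Bdp1 and Maf1, compared with 38.0% of matched promoters. All 3 genes of P-TEFb, the kinase that releases paused Pol II, had a peak, compared with 28.0% of matched promoters, and Ccnt1 and Ccnt2 were shared. With 4 and 3 genes, these groups are too small to be set apart from other promoters. In DSIF and NELF, which hold Pol II in the paused state, 2 of 6 had one, at Supt5 and Nelfa, the latter shared, and 38.0% of matched promoters did. Of the 5 TFIIH genes with other names, Cdk7 was shared, Ccnh was in replicate 1 only, and Ercc2, Ercc3 and Mnat1 had none. Of the Pol I subunits under older symbols, Twistnb and Znrd1 were in replicate 1 only and Cd3eap had none, and the Pol I factors Rrn3 and Ttf1 and the Pol III subunit Crcp also had none. In SNAPc, which serves small nuclear RNA genes, 3 of 5 genes had a peak, compared with 44.0% of matched promoters, and Snapc2 was shared. Of the 3 TFIIS genes, which help stalled Pol II, Tcea1 was shared and Tcea2 and Tcea3 had none. In mitochondrial transcription, Tfam was shared, and Polrmt, Tfb1m and Tfb2m had none.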

How the data were processed

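Eya1 ChIP-seq of E13.5 kidneys gave a peak list for each replicate, with 4277 peaks in the first and 4175 in the other. The deposited lists have 3 columns (chromosome, start and end) and carry no score, fold or read count, so depth is unknown and no stricter threshold could be set from them. According to the study's methods, reads were aligned to mm10 with Bowtie and peaks were called with MACS against input or IgG at various cutoffs, and peaks found against both controls were kept. The submitters' processing notes name HISAT2 instead. The cutoff and control of each list are not given in the sources used here. Neither control sample was analysed here, and the values therefore have no control level beside them.

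Starts were converted to 1-based positions. Chromosome lengths of GRCm38 held all peaks (0 beyond an end). Genes, TSSs and exons were from GENCODE M21 and sequence from the GRCm38 assembly of RefSeq. CpG content was taken in the 1000 bp around the annotated 5′ end, and the 25 nearest other genes were taken per member, so a gene may recur. No test was run, because the members are not replicates of a condition and the lists form a single group. Scripts ran in Python 3.11.15 (pysam 0.24.0 for sequence, pandas 2.3.3 and numpy 2.4.6 for tables, matplotlib 3.10.9 for plots and scipy 1.17.1). The counting, matching and motif search were checked on simulated data. Members and lists were chosen with earlier results of these data known. Members are named with their class, except for an item that is not reported here, positions are given for the shared member with the widest replicate 2 peak in each group and for members of replicate 2 only, distances for unoccupied members of the highest CpG content, and the motifs and the 40 further genes were listed by function. The alternatives varied the distance to a TSS, the TSSs used, the overlap rule, peak width, the matching and the members and replicates kept.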

Additional observations from a re-analysis of the deposited data

How the results depend on the processing

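Of 56 alternatives for 8 results, 39 stayed within the limits set for them (1.5-fold for a count, the 95% interval for a share or a median width) and 17 did not. The median widths stayed within theirs throughout. For replicate 1, taking the widest peak per member or only peaks that cover a TSS kept the same 27 peaks. Its median could therefore not move under these alternatives. Alternatives that drop peaks, members or a replicate can only lower a count, so part of this tally was set by the choice of alternatives.

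The count in either list was 14 to 27 when a replicate was left out, compared with 29. When a peak had to cover the TSS, replicate 2 members fell to 5 and shared members to 4, since most of the narrow replicate 2 peaks lie beside the TSS. Keeping the wider peaks of each list, from its median upward, left 16 members in replicate 1, 8 in replicate 2, 7 shared and 17 in either list. Without the divergent members, 50 members remained, of which 14, 7, 6 and 15 were occupied in the same order. With 50% of both peaks covered, 1 member was shared. A distance of 500 bp or 3 kb, midpoints, the gene 5′ end alone, and the omission of chromosome X moved no count by over 1.5-fold.

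The CpG-matched share for either list was 41.9% with CpG content of 300 bp and 41.4% with promoters of the same divergent or single kind. It was 23.8% to 33.1% when a replicate was left out, beside 18.9% and 36.5% of the members. For shared peaks it was 20.5% with CpG content of 300 bp. The lists carry no depth, so a member without a peak was not listed, which is not to say that Eya1 is absent there. No paired analysis was possible because the ChIP replicates form a single group.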
